A study of Mus musculus with 8 samples.

Results

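Mitochondria fold and clear their own proteins with a set of chaperones and ATP-dependent proteases in the matrix and inner membrane. In the mitochondrial unfolded protein response, damage to protein folding or to the respiratory chain is relayed to the nucleus, and transcripts of these chaperones and proteases rise. The genes described here are 10 effectors of that response: the chaperonin Hspd1 and its co-chaperonin Hspe1, the Hsp70 Hspa9 with its partners Dnaja3 and Grpel1, the Hsp90 Trap1, and the proteases Lonp1, Clpp with its unfoldase Clpx, and Afg3l2. They were chosen by symbol, with earlier results of these data known. All 10 were found in a table of 17847 gene rows (17845 symbols), and all 10 passed the filter on low values.

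RNA was sequenced from muscle stem cells of C57Bl/6 mice, the cells that carry Pax7 and rebuild damaged fibres, in 4 wild-type and 4 Cox10-/- libraries. A Pax7-driven, tamoxifen-dependent Cre was used to remove a floxed part of Cox10, so deletion was directed at Pax7-expressing cells. Tamoxifen, given in the labels of both genotypes, was injected once into the peritoneum (200 mg/kg). After 2 days, cells that stained for CD34 and lacked CD31, CD45, Sca1 and DAPI, a dye that enters dead cells, were sorted. Age, sex, the Cre and floxed status of wild-type animals, and whether libraries stem from separate animals are not stated in the labels. The p-values therefore measure the spread between these libraries, which may be technical. The comparison asks which of these transcripts differ shortly after Cox10, an enzyme of haem A synthesis for respiratory complex IV, is targeted.

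Reads counted in genes ranged from 1693265 to 4652418 per library, lowest in Cox10-/- replicate 4 and wild-type replicate 2. Cox10 itself, in log2 CPM (counts in genes, scaled to the same library total and logged), was 3.98, 3.42, 4.12 and 3.69 in wild-type replicates 1 to 4. It was 3.51, 3.69, 3.49 and 2.05 in Cox10-/- replicates 1 to 4, a difference of -0.62 ± 0.34 (log2, SE, n = 4 per genotype; limma adjusted p = 0.246) that did not pass. Cox10 was counted from 7 to 81 reads, the fewest in Cox10-/- replicate 4, and without that library the difference was -0.24 (adjusted p = 0.507). The counts are of the whole gene, and the floxed part was not read on its own. All 11 muscle stem cell markers were present, with summed levels of 2530 to 3212 CPM in wild-type and 1710 to 1880 in Cox10-/-, and 7 of them fell. Rises and falls of markers are limma calls at an adjusted p under 0.05. Over all genes tested, 7.58% rose and 8.51% fell. Fibro-adipogenic markers summed to 4695 to 6387 CPM in wild-type and 4719 to 10037 in Cox10-/- (2 of 10 rose, 1 fell). Endothelial markers summed to 371 to 417 and 442 to 518 CPM (4 of 15 rose), mural markers to 991 to 1144 and 1275 to 1500 (2 of 8 rose, 2 fell), and fibre markers to 62.9 to 162 and 98.8 to 294 (2 of the 9 tested rose). Of 13 haematopoietic markers 4 were in the table, at sums of 25.6 to 35.2 and 27.7 to 47.4 CPM, and none of them rose or fell. Each sum is led by its highest markers, so it is no measure of cell number. In wild-type, Tek (6.97 to 7.4 log2 CPM) and Cdh5 (6.49 to 6.75) led the endothelial sum, with Pecam1 at 2.7 to 4.32. Des (8.09 to 8.54) led the mural sum. The part of these cell types in the results below was not tested. In bulk RNA, fewer cells of a type and less RNA per cell cannot be told apart.

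Most of these transcripts of the mitochondrial unfolded protein response showed no called difference between Cox10-/- and wild-type libraries. Of the 10 genes, Trap1 fell, Clpx rose and 8 did not pass the test (limma, Benjamini-Hochberg adjusted p under 0.05 over all genes). The share called among all 17801 genes tested was 16.1% (7.58% higher and 8.51% lower in Cox10-/-), so 2 of 10 is close to the background. The median difference of the 10 genes was -0.06 (log2), as was that of all genes tested. Groups did not overlap for Trap1, Clpx and Dnaja3, against 21.1% of all genes (9.29% with Cox10-/- above and 11.8% with it below).

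**Figure D1:**
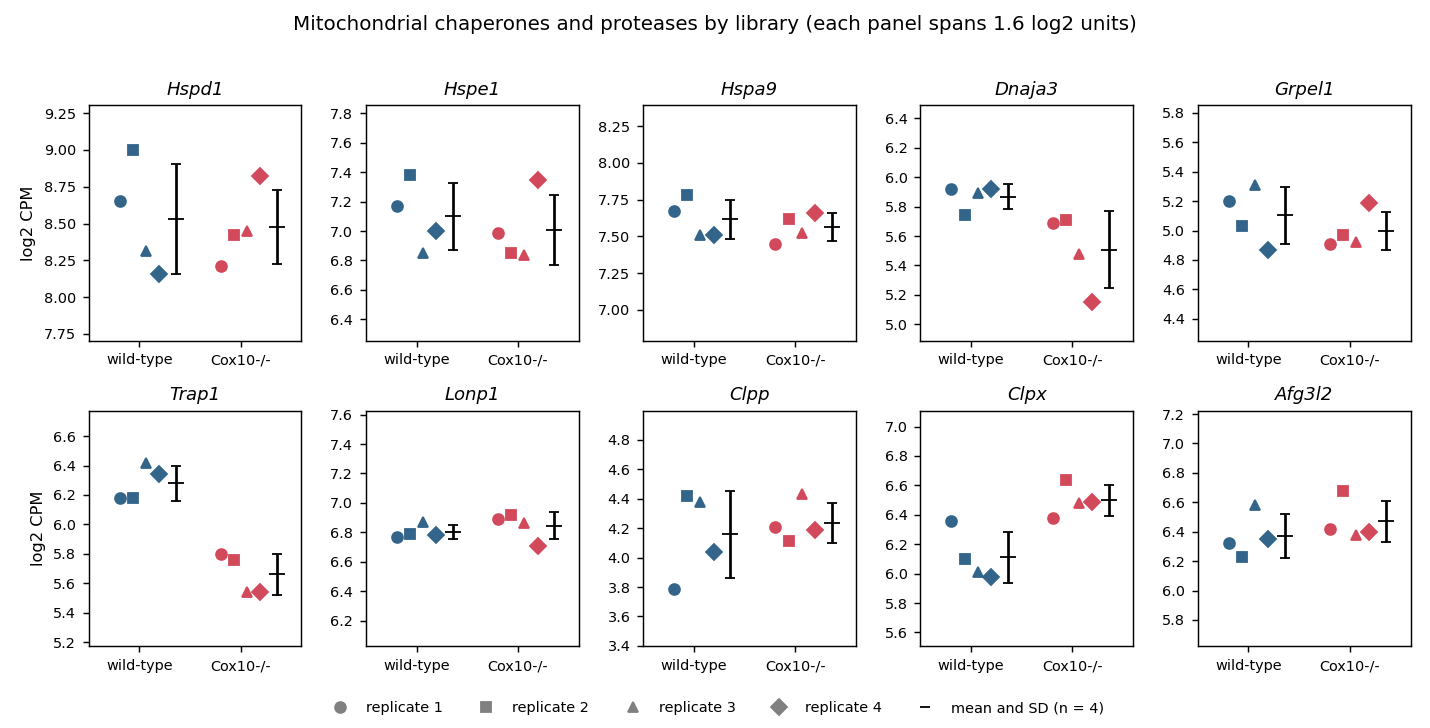
Level of each gene (log2 CPM, vertical axis) in the 4 wild-type (blue) and 4 Cox10-/- (red) libraries, with the replicate as the marker shape and the mean and SD in black. All 4 Cox10-/- libraries lie below wild-type for Trap1 and Dnaja3 and above it for Clpx, and the genotypes overlap for the other 7 genes.

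Levels were first set against each other per length, as CPM per kilobase of exon in wild-type (mean ± SD, n = 4). Hspe1 was the highest at 179 ± 28.5 and Hspd1 next at 157 ± 41.7, with ranges that overlapped. Hspa9 followed at 64.6 ± 5.98, Lonp1 at 37.8 ± 1.22, Trap1 at 33.6 ± 2.81 and Afg3l2 at 26.8 ± 2.86. Clpx (24.1 ± 3.01), Dnaja3 (22.1 ± 1.28) and Clpp (18.4 ± 3.68) overlapped their neighbours in this order, as Clpx did Afg3l2, and Grpel1 was the lowest at 9.80 ± 1.30. In Cox10-/- libraries Trap1 stood at 21.9 ± 2.11 and Clpx at 31.4 ± 2.36 CPM per kilobase, which placed Clpx above Trap1.

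Hspd1 and Hspe1 encode the barrel and the lid of the mitochondrial chaperonin, which encloses matrix proteins while they fold. The genes lie head to head and share a promoter. The stretch between their transcript starts in GENCODE M21, at chr1:55088025-55088131 on the plus strand of GRCm38.p6, is shown because both genes are read from it. The sequence is RefSeq's, and the capitals mark a heat shock element of 4 alternating units, the site that heat shock factors bind.

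Hspd1-Hspe1: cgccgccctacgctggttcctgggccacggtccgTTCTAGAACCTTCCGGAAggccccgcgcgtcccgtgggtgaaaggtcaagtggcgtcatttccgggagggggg

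That element was searched as TTCNNGAA repeated after 2 free bases, or GAANNTTC repeated in that way, on both strands, and 8 of 32851 RefSeq promoter windows of equal length (0.0244%) held it. They were the windows of Hspd1 and Hspe1, which hold the same shared site, and of the heat shock co-chaperone gene Chordc1. The others were those of Arpc2, Fam149a, Kctd18 and the predicted genes Gm38873 and Gm41230. A form of 3 units was in 0.603% of windows and, of the genes described, in those of Hspd1 and Hspe1. The shortest form, 2 inverted units (GAANNTTC or TTCNNGAA), is contained in both longer ones. It was in 15.1% of windows and in those of Hspd1, Hspe1 and Clpp. Windows were read for 8 of the 10 genes, and those of Hspa9 and Afg3l2 were not analysed here. The sites are descriptions of sequence, and no binding was measured.

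Hspd1 stood at 8.65, 9.0, 8.31 and 8.16 log2 CPM in wild-type replicates 1 to 4, and at 8.21, 8.42, 8.45 and 8.82 in Cox10-/- replicates 1 to 4. The genotypes overlapped fully, and the highest library of each genotype was its shallowest, wild-type replicate 2 and Cox10-/- replicate 4. The difference was -0.06 ± 0.17 (log2, SE; limma adjusted p = 0.862), with a 95% interval from 0.742-fold to 1.25-fold. Replicates 1 and 2 alone gave -0.51, replicates 3 and 4 alone gave 0.40, and the value was 0.10 without wild-type replicate 2. A difference between those pairs was not tested.

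Hspe1 stood at 7.17, 7.38, 6.85 and 7.0 in wild-type and at 6.99, 6.85, 6.84 and 7.35 in Cox10-/- replicates 1 to 4. The same libraries as for Hspd1 were highest. The difference was -0.09 ± 0.14 (limma adjusted p = 0.695), with an interval from 0.761-fold to 1.16-fold. Within a library, Hspd1 lay above Hspe1 by 1.43 ± 0.19 on the log2 CPM scale in wild-type and by 1.47 ± 0.18 in Cox10-/- (SD, n = 4), so the balance of barrel and lid transcripts was alike within the spread.

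Both chaperonin genes have processed copies, and reads could be split among near-identical sequences. RefSeq names 5 pseudogenes after Hspd1 and 7 after Hspe1, and 2 of each were in the table. The copy Hspd1-ps3 was listed at 6.34, 6.72, 6.07 and 5.79 in wild-type and at 6.00, 5.98, 6.01 and 6.05 in Cox10-/- libraries. With Hspd1-ps3 and Hspd1-ps4 added, the difference of Hspd1 was -0.07, and the copies held 13.4% to 18.6% of the summed CPM. Hspd1-ps4, near the floor at a mean of 0.71 in wild-type, was listed as higher by 1.18 ± 0.35 (limma adjusted p = 0.0377) from 3 to 16 reads, and kept that call only when wild-type replicate 3 was the library left out (otherwise 0.057 to 0.109).

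Hspa9 encodes mortalin, the matrix Hsp70 that pulls in and folds imported proteins. It stood at 7.67, 7.78, 7.51 and 7.51 log2 CPM in wild-type and at 7.45, 7.62, 7.52 and 7.66 in Cox10-/- replicates 1 to 4. The groups overlapped, and the difference of -0.06 ± 0.09 (limma adjusted p = 0.73) had an interval from 0.837-fold to 1.11-fold. Grpel1, the nucleotide exchange factor of Hspa9, differed by -0.11 ± 0.14 (adjusted p = 0.657), at 4.87 to 5.31 in wild-type and 4.91 to 5.19 in Cox10-/-.

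Dnaja3, a J-protein that stimulates the ATPase of Hspa9, was the third gene whose groups did not overlap. It stood at 5.92, 5.74, 5.89 and 5.92 in wild-type and at 5.69, 5.71, 5.48 and 5.15 in Cox10-/- replicates 1 to 4. All Cox10-/- values lay below the lowest of wild-type, replicates 1 and 2 only narrowly. The difference was -0.36 ± 0.14 (limma adjusted p = 0.092; interval 0.635-fold to 0.956-fold) and did not pass. Replicates 1 and 2 gave -0.13 and replicates 3 and 4 gave -0.59. The gene passed with a term for library depth (-0.32, adjusted p = 0.0326; 21.9% of genes called), a setting added after the data were seen.

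Trap1 encodes the Hsp90 of mitochondria, a chaperone known to bind respiratory chain proteins. It stood at 6.18, 6.18, 6.42 and 6.34 log2 CPM in wild-type replicates 1 to 4 and at 5.80, 5.76, 5.54 and 5.54 in Cox10-/- replicates 1 to 4. All 4 Cox10-/- libraries were lower, with a gap of more than the SD of either group (0.12 and 0.14). Trap1 fell by 0.62 ± 0.11 (log2, SE, n = 4 per genotype; limma adjusted p = 0.00288), to 65.1% of wild-type with an interval from 0.55-fold to 0.769-fold. The call held in all 8 fits that left out 1 library, with differences from -0.67 to -0.57 and adjusted p from 0.00403 to 0.0139. Over all genes, the share called in those fits was 10.7%, 16.3%, 12.4% and 12.2% without wild-type replicates 1 to 4, and 14.2%, 12.7%, 10.3% and 15% without Cox10-/- replicates 1 to 4. Replicates 1 and 2 gave -0.40 and replicates 3 and 4 gave -0.84. When each of these pairs was averaged into 1 value, Trap1 did not pass (adjusted p = 0.0786; 4.82% of genes called). With a term for the pairs instead, Trap1 and Clpx passed (21.6% of genes called).

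Trap1 was counted from 79 to 398 reads per library. In GENCODE M21 its exons share 54 bases with those of Dnase1, which lies on the other strand. Dnase1 was at 3.38, 2.22, 3.34 and 3.28 in wild-type and 2.48, 2.58, 1.82 and 2.05 in Cox10-/- libraries, a difference of -0.82 ± 0.33 (limma adjusted p = 0.107), from 7 to 47 reads. Without wild-type replicate 2 the Dnase1 difference was -1.10 (adjusted p = 0.0221). Whether strand was used in counting is not given in the sources used here, so reads of that overlap cannot be assigned to either gene.

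The bases before the first annotated start of the genes that passed the test are shown, on each gene's own strand, with RefSeq sequence of GRCm38.p6. For Trap1 (chr16:4077828-4077927, minus strand) the capitals mark a cyclic AMP response element, the palindrome bound by CREB and ATF factors. For Clpx (chr9:65294160-65294259, plus strand) they mark 9 bases of the site of NRF1, a regulator of nuclear genes for mitochondria.

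Trap1: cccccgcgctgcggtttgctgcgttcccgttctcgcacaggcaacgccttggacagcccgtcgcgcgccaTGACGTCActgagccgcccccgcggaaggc

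Clpx: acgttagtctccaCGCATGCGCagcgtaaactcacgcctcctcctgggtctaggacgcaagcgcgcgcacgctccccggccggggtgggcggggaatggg

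TGACGTCA was in 1.79% of all windows and, of the 8 genes, in that of Trap1 alone. CGCATGCGC was in 1.75% and in that of Clpx alone. Both motifs were chosen after the sequences were seen. The full NRF1 palindrome, the 9 bases with a G before them (0.971% of windows), and TGATGNAAT, the composite site of ATF4 and C/EBP factors (0.965%), had no match in the windows of the 8 genes on either strand. With any base allowed at its A, the full NRF1 palindrome was in 4.6% of windows and in those of Dnaja3 and Hspd1, genes that did not pass the test.

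Clpx encodes the unfoldase that feeds substrates to the ClpP protease and that also acts on the first enzyme of haem synthesis. It stood at 6.36, 6.10, 6.01 and 5.98 log2 CPM in wild-type and at 6.38, 6.64, 6.48 and 6.49 in Cox10-/- replicates 1 to 4. All Cox10-/- libraries lay above wild-type, but the lowest of them, replicate 1, only just exceeded wild-type replicate 1. Clpx rose by 0.39 ± 0.11 (log2, SE, n = 4 per genotype; limma adjusted p = 0.0336), or 1.31-fold with an interval from 1.10-fold to 1.54-fold. The call was lost in 6 of the 8 fits that left out 1 library: wild-type replicates 2, 3 or 4 (adjusted p = 0.0531, 0.0904 and 0.0887) or Cox10-/- replicates 2, 3 or 4 (0.0941, 0.0794 and 0.053). The difference kept its sign throughout, from 0.34 to 0.47. Replicates 1 and 2 gave 0.28 and replicates 3 and 4 gave 0.49, and the averaged pairs gave an adjusted p of 0.243. Without the shallowest library of each genotype it was 0.0675 (17.1% of genes called).

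Clpp, the proteolytic chamber that works with Clpx, did not pass. It ranged from 3.79 to 4.42 in wild-type and from 4.11 to 4.43 in Cox10-/-, counted from 31 to 97 reads. The difference was 0.08 ± 0.19 (limma adjusted p = 0.816; interval 0.794-fold to 1.40-fold), the widest interval of the 10 genes. Clpx lay above Clpp by 1.63 to 2.57 on the log2 CPM scale in wild-type and by 2.05 to 2.53 in Cox10-/-, so the balance of the partners overlapped between genotypes.

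Lonp1, the main soluble protease of the matrix, which degrades oxidised and unassembled proteins, had the smallest SE of the 10 genes. It stood at 6.77, 6.79, 6.87 and 6.78 in wild-type and at 6.89, 6.92, 6.86 and 6.71 in Cox10-/- replicates 1 to 4. The groups overlapped. The difference was 0.04 ± 0.09 (limma adjusted p = 0.778; interval 0.904-fold to 1.17-fold).

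Afg3l2 is a subunit of the m-AAA protease of the inner membrane, which clears unassembled membrane proteins and processes ribosomal and other substrates. It stood at 6.32, 6.23, 6.58 and 6.35 in wild-type and at 6.42, 6.68, 6.38 and 6.40 in Cox10-/- replicates 1 to 4. The groups overlapped, and the difference was 0.10 ± 0.11 (limma adjusted p = 0.578; interval 0.908-fold to 1.27-fold). Both other m-AAA subunits fell: Spg7, paraplegin, fell by 0.54 ± 0.16 (adjusted p = 0.0429), and Afg3l1, a paralog expressed in mice, fell by 0.48 ± 0.15 (adjusted p = 0.0493). Both kept the call when wild-type replicate 2 or Cox10-/- replicate 1 was left out and lost it for each other library, at 0.0737 to 0.118 for Spg7 and 0.0854 to 0.13 for Afg3l1. Afg3l2 lay above Spg7 by 0.23 to 0.54 on the log2 CPM scale in wild-type and by 0.64 to 1.33 in Cox10-/-, ranges that did not overlap. Over Afg3l1 it lay by 0.59 to 0.86 in wild-type and 1.00 to 1.55 in Cox10-/-. These ratios were chosen after the values were seen and were not tested.

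**Figure D2:**
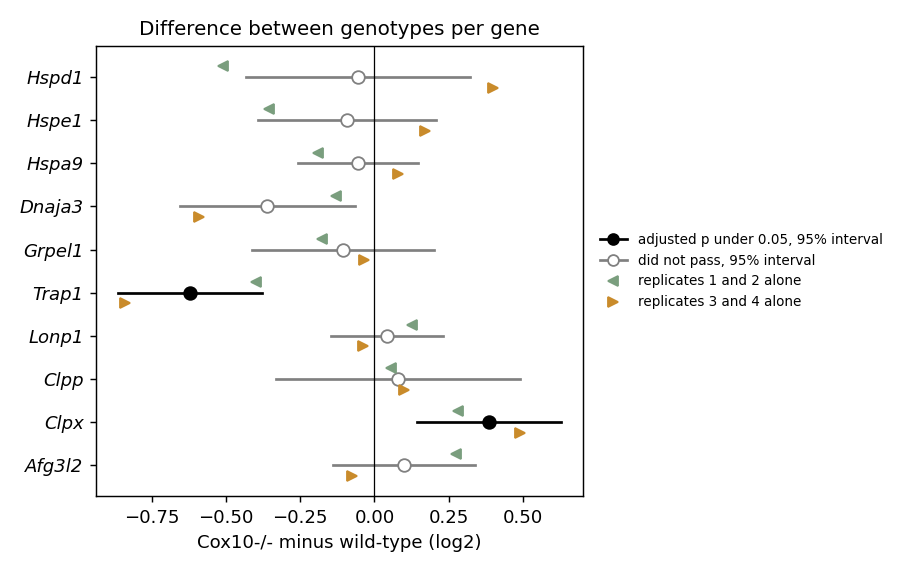
Difference between genotypes (Cox10-/- minus wild-type, log2, horizontal axis) for each gene, with the 95% interval of the limma fit and, as triangles, the difference within replicates 1 and 2 and within replicates 3 and 4. Trap1 (-0.62) and Clpx (0.39) passed, and for Hspd1 the triangles lie at -0.51 and 0.40, on opposite sides of 0.

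Over the 8 genes that did not pass, the upper bounds of the 95% intervals ran from 0.956-fold for Dnaja3 to 1.40-fold for Clpp. Each interval is for its own gene and covers the spread between these libraries.

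The chaperonin genes varied more between libraries than between genotypes. Pearson correlations with Hspd1 over the 8 libraries, given as a description, were 0.927 for Hspa9 and 0.819 for Hspe1. Without wild-type replicate 2 and Cox10-/- replicate 4, the libraries farthest from the median of Hspd1, they were 0.84 and 0.317 over 6 libraries. Leaving out the libraries farthest in Hspd1 narrows its range, which can lower a correlation by itself, so what the relation to Hspe1 rested on cannot be told. With any 1 library left out, the lowest correlations were 0.863 for Hspa9 and 0.704 for Hspe1. Wild-type replicate 2 and Cox10-/- replicate 4 were also the shallowest, and the part of depth was not tested. Over all 8 libraries the correlation was -0.562 for Lonp1, -0.471 for Afg3l2, -0.17 for Trap1 and 0.145 for Clpx. Without the same libraries they were -0.204, -0.0967, -0.197 and 0.511 in that order, so those of Lonp1, Afg3l2 and Clpx moved with the libraries left out.

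The 5 genes whose pattern was closest to that of Hspd1, among 12049 whose mean reached 2 on the log2 CPM scale, were Bag3 (0.985), Rpsa (0.981), Hnrnpk (0.981), Arf4 (0.977) and Klf6 (0.968). Bag3 encodes a co-chaperone of cytosolic Hsp70 induced by heat shock factors, Rpsa a ribosomal protein, Hnrnpk an RNA-binding protein, Arf4 a small GTPase and Klf6 an immediate-early transcription factor. Without wild-type replicate 2 and Cox10-/- replicate 4 these correlations were 0.918 to 0.982. The genes were picked for high correlation over libraries that include the remaining ones, so these values follow in part from that choice. Hspa9 was in place 34 of that order and Hspe1 in place 218.

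**Figure D3:**
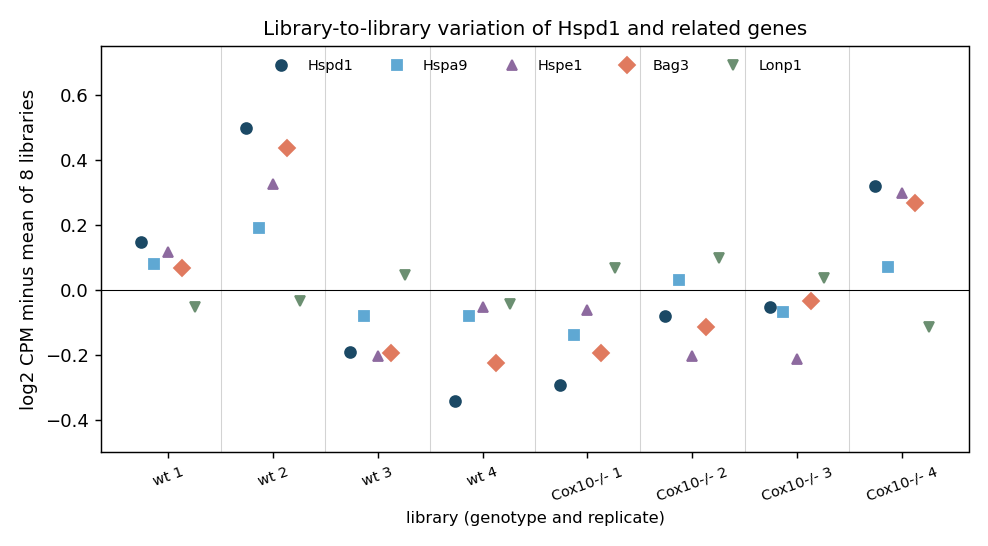
Level of Hspd1, Hspa9, Hspe1, Bag3 and Lonp1 in each library, as the difference from the gene's own mean over the 8 libraries (log2, vertical axis). Hspd1, Hspe1, Hspa9 and Bag3 are highest in wild-type replicate 2 and, in Cox10-/-, in replicate 4, and Lonp1, between 6.71 and 6.92 log2 CPM, stays near its mean.

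Regulators of the response were read from a list of 20 genes, of which 18 were tested: 1 rose, 2 fell and 15 did not pass. The share called, 16.7%, is close to the 16.1% of all genes. Among transcription factors placed upstream of the mitochondrial response, transcripts of Atf4, Atf5 and Ddit3 showed no called change, while that of Hsf1 fell. Their proteins were not measured. Atf4 was at 7.22 ± 0.22 in wild-type and 7.40 ± 0.19 in Cox10-/- (log2 CPM, SD, n = 4; limma adjusted p = 0.366), Atf5 at 6.02 ± 0.21 and 5.93 ± 0.14 (adjusted p = 0.664), and Ddit3, which encodes CHOP, at 6.12 ± 0.26 and 6.00 ± 0.04 (adjusted p = 0.569). Hsf1, the heat shock factor whose element is marked above, fell from 6.17, 6.04, 6.06 and 5.86 in wild-type to 5.79, 5.61, 5.55 and 5.17 in Cox10-/- replicates 1 to 4. The fall was 0.50 ± 0.14 (adjusted p = 0.0281), the groups did not overlap, and the call was lost on leaving out wild-type replicate 1 (adjusted p = 0.0881), wild-type replicate 3 (0.0655) or Cox10-/- replicate 3 (0.0669). Eif2ak2, the kinase PKR, fell by 0.71 ± 0.18 (adjusted p = 0.0202) and lost its call on leaving out wild-type replicate 3 (0.0537) or 4 (0.0568). Ppargc1a encodes PGC-1alpha, a coactivator that drives mitochondrial biogenesis. It rose by 0.83 ± 0.15 (adjusted p = 0.00368) and kept its call whichever library was left out.

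Other chaperones and proteases of mitochondria were more often lower than higher, though few passed. The pathway lists in this report were chosen with earlier results of these data known, so their shares are descriptions and were not tested. Of 17 further chaperones and co-chaperones, 15 lay below 0 (55% of all genes did), with a median of -0.35. In that list Dnajc19, a J-protein of the import motor, fell by 0.59 ± 0.16 (limma adjusted p = 0.0243), none rose and 16 did not pass (over all genes, 8.51% fell and 7.58% rose). Of 17 further proteases and peptidases, 16 lay below 0 with a median of -0.30, and 4 fell, against 8.51% of all genes: Spg7, Afg3l1, Mipep and Immp2l. Mipep, which trims imported precursors, went from 4.57, 4.25, 4.93 and 4.79 in wild-type to 3.75, 3.37, 3.12 and 2.24 in Cox10-/- replicates 1 to 4, a fall of 1.51 ± 0.30 (adjusted p = 0.00502). Immp2l, a peptidase of the inner membrane, went from 1.87, 1.70, 1.59 and 1.80 to 0.21, 0.69, 0 and 0, where 0 stands for a CPM of 1 or less. Its fitted fall of 1.51 ± 0.30 (adjusted p = 0.00559) rests on at most 14 reads per library and is limited by that floor. Mipep and Immp2l kept their calls whichever library was left out, though Immp2l did not pass in limma-voom on recovered reads (0.0625). The size of its difference depended on the processing, at -2.38 in limma-voom, where values at the floor counted as 0 reads, and -0.99 on the log2(CPM + 1) scale. Dnajc19 lost its call on leaving out wild-type replicate 1 (0.0838), wild-type replicate 4 (0.0562) or Cox10-/- replicate 3 (0.0692).

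Import into mitochondria, which delivers the substrates of these chaperones, had 5 falls and no rise among 21 genes tested, with 19 below 0 and a median of -0.41. Over all genes 8.51% fell and 55% lay below 0. The import genes that fell were Timm50 (-0.73 ± 0.18) and Timm21 (-0.79 ± 0.23) of the inner membrane translocase, the small Tim protein Timm13 (-0.97 ± 0.29), Samm50 of the outer membrane assembly machinery (-0.50 ± 0.13) and the intermembrane space oxidoreductase Chchd4 (-0.79 ± 0.21). Their limma adjusted p lay between 0.0155 for Timm50 and 0.0367 for Timm13. Reads per library ran from 7 to 59 for Timm13, 14 to 70 for Chchd4, 17 to 116 for Timm21, 19 to 115 for Timm50 and 44 to 208 for Samm50. Replicates 1 and 2 gave -0.49 for Timm13 and -0.29 for Timm21, and replicates 3 and 4 gave -1.455 and -1.295. Leaving out wild-type replicate 3 ended the calls of Timm50 (0.0563) and Samm50 (0.0548), and wild-type replicate 4 that of Samm50 too (0.0637). Chchd4 lost its call without wild-type replicate 1 (0.0896), wild-type replicate 4 (0.0502) or Cox10-/- replicate 3 (0.0766). Timm21 and Timm13 lost theirs without wild-type replicates 1, 3 or 4 or Cox10-/- replicates 3 or 4 (0.0647 to 0.0965 and 0.0645 to 0.102).

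Chaperones of other compartments were set beside them. Of 23 cytosolic heat shock chaperones 1 rose and 2 fell (13% called, against 16.1% of all genes), with a median of -0.07. Hspb8, a small heat shock protein that works with Bag3, rose from 5.31 to 5.62 in wild-type libraries to 6.16 to 6.41 in Cox10-/-, by 0.78 ± 0.11 (limma adjusted p = 6.51e-04), and kept its call in all 8 fits without 1 library. Stip1, a scaffold between Hsp70 and Hsp90, fell by 0.58 ± 0.16 (adjusted p = 0.0282), and Cct5, a subunit of the cytosolic chaperonin, by 0.35 ± 0.09 (adjusted p = 0.0233). Stip1 lost its call without wild-type replicates 1 or 2 or Cox10-/- replicates 3 or 4 (0.0665 to 0.0858), and with the shallowest libraries left out the difference was -0.36 (0.108). Cct5 lost its call without wild-type replicate 1 (0.075) or Cox10-/- replicates 2 (0.0504) or 3 (0.0783), and after median centring (0.0914). Of 15 chaperones of the endoplasmic reticulum none rose and 4 fell (over all genes, 7.58% rose and 8.51% fell), with a median of -0.14. The disulfide isomerases Pdia4 (-0.50 ± 0.08, adjusted p = 0.00152) and Pdia6 (-0.54 ± 0.09, adjusted p = 0.00256), the secreted stress protein Creld2 (-0.77 ± 0.15, adjusted p = 0.00539) and the Hsp70-like Hyou1 (-0.59 ± 0.16, adjusted p = 0.0236) were those. Hyou1 lost its call without wild-type replicate 1 (0.0611), wild-type replicate 3 (0.0554) or Cox10-/- replicate 3 (0.0781), and the other 3 kept theirs whichever library was left out. Leaving out the shallowest library of each genotype also ended the calls of Hyou1 (0.0617), Cct5 (0.0512), Hsf1 (0.0603) and Timm21 (0.0549).

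**Figure D4:**
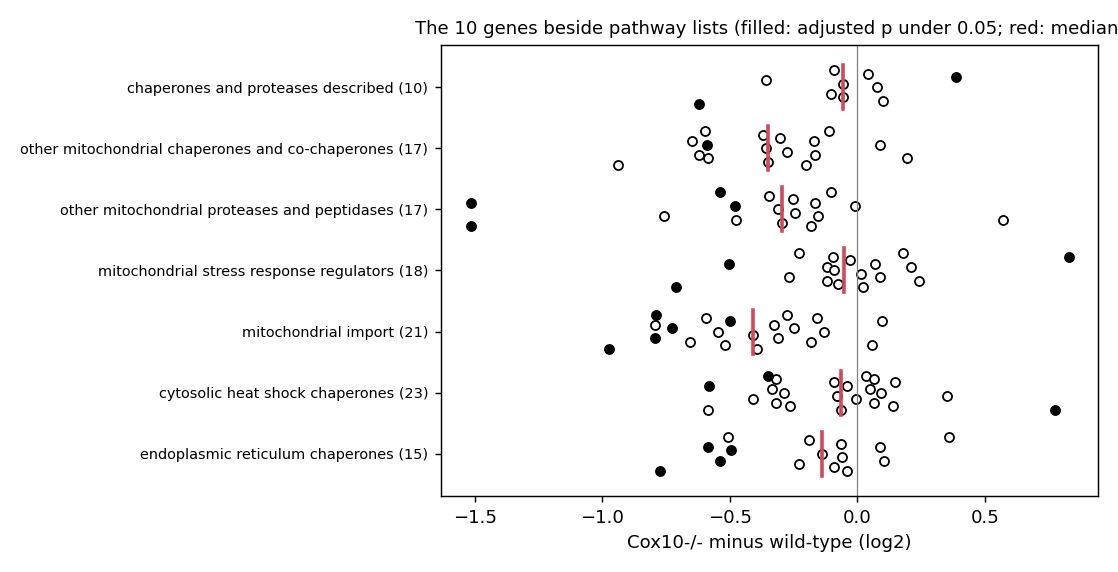
Difference between genotypes (Cox10-/- minus wild-type, log2, horizontal axis) for every tested gene of each list, with genes past the test filled and the median of the list in red. The 10 genes described lie around a median of -0.06, and the lists of other mitochondrial chaperones, proteases and import have medians of -0.35, -0.30 and -0.41.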

How the data were processed

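The authors deposited 1 table of log2 CPM for the 8 libraries, with every CPM of 1 or less at 0, as tested on the values. Tools named in the submitters' processing notes, without roles, are HISAT2, featureCounts, DESeq2 and Trim Galore, with build mm9. Rows with no gene (1054) were left out. Whole reads were recovered from the steps of low values (100% of those up to 20 reads lay within 0.1 of a whole number) and gave the depths.

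Genotypes were compared with limma 3.58.1 (R 4.3.3) on those values, with a mean-variance trend, no covariate and Benjamini-Hochberg adjustment over 17801 genes above 0 in at least 4 libraries. The scripts were tested on simulated data. Exon lengths (GENCODE M21) and sequences (RefSeq) are of GRCm38, and no value was placed by coordinates. Members and lists were chosen with earlier results of these data known. Named were all members, Cox10, Atf4, Atf5, Ddit3, Hsf1, called list genes (at most 5 each way) and the 5 genes most like Hspd1, predicted gene models left out. Copies and Dnase1 were added for the reads they could share. The split of replicates 1 and 2 from 3 and 4 is no label and came from earlier results. Correlations across genes were 0.974 and 0.98 for these pairs in wild-type and 0.98 and 0.97 in Cox10-/-, where replicate 3 was as close to replicate 2 (0.971).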

Additional observations from a re-analysis of the deposited data

Results flagged for a closer look

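In a genotype of 4 libraries, 1 library stood apart from the other 3 by Dixon's 95% criterion in 5 of 88 groups examined, and chance flags about 1 in 20. Among the 10 genes, Dnaja3 was lower in wild-type replicate 2 (5.74 log2 CPM, the others 5.89 to 5.92). Afg3l2 was higher in Cox10-/- replicate 2 (6.68, the others 6.38 to 6.42). Of the other genes named, Cox10 was lower in Cox10-/- replicate 4 (2.05, the others 3.49 to 3.69). Chchd4 was higher in wild-type replicate 1 (4.30, the others 3.85 to 3.90), and Dnase1 was lower in wild-type replicate 2 (2.22, the others 3.28 to 3.38).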

How the results depend on the processing

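Of the 10 genes, 2 passed as deposited, 1 (Trap1) without the shallowest library of each genotype, 3 with a term for depth, and 0 with averaged pairs of replicates (1 with 2, 3 with 4). Leaving out 1 library gave 1 to 2. Over all genes, 2863 passed as deposited, 858 with averaged pairs, and 1840 to 2907 when 1 library was left out (1902 for wild-type replicate 1, 1840 for Cox10-/- replicate 3). Differences near 0 changed sign on leaving out 1 library, none of them called. Hspd1 ran from -0.18 to 0.10, with 0.03 for Cox10-/- replicate 1, Hspe1 from -0.21 to 0.00 and Clpp from -0.04 to 0.17. The cause was not tested. Among the other named genes, the averaged pairs left the calls of Mipep, Ppargc1a and Hspb8. No filter, log2(CPM + 1), median centring, a term for replicates 1 and 2 against 3 and 4 (21.6% of genes called) and limma-voom on recovered reads changed no call of the 10 genes. Rises made up 47.1% of calls as deposited and 53.6% after median centring. Whether the replicate numbers pair the samples cannot be told from these values. Deviations of same-numbered libraries correlated at 0.0453 for number 1 and at 0.109 to 0.137 for the others. Across different numbers the correlations ran from -0.215 to 0.165, and wild-type replicate 1 correlated best with Cox10-/- replicate 2 (0.165). With a replicate block 3201 genes and the same 2 members passed. edgeR and DESeq2, planned for recovered reads, were not run, and limma-voom was used on those reads instead. limma-voom and the depth term were added after seeing the data. Depth limits Clpp (31 to 97 reads) most of the 10 genes.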
